A study of Mus musculus with 14 samples.

Results

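The genotype by transformation interaction asks, for each gene, whether the difference between Cdk6 knockout (KO) and wild-type (WT) cells is the same before and after transformation by BCR-ABL p210. All 14 libraries of the series entered it, 14 of 14, and each was placed by its title in 1 of 4 groups. The cells were HPC-LSK lines, mouse haematopoietic stem and progenitor lines on a C57BL/6N background, named for the lineage-negative, Sca-1-positive, Kit-positive fraction of bone marrow. WT untransformed cells gave 4 libraries and KO untransformed cells gave 3, both grown in 12.5 ng/ml IL-6 and 2% SCF. WT p210 cells gave 3 libraries and KO p210 cells gave 4, both kept without either cytokine by the growth protocol. The descriptions of all p210 libraries carry the letters SCF, whose meaning is not given, so whether SCF was present is not settled here. By the protocol every p210 value below also holds a change of medium, and oncogene and medium cannot be told apart. The descriptions give each library a genotype, 1 of 2 codes and a letter, which were read here as naming the line; the labels do not say so. By that reading 6 lines, 3 WT and 3 KO, were sequenced in both states. A second run is marked for WT untransformed replicates 2, 3 and 4, KO untransformed replicate 3 and KO p210 replicates 2 and 4. No WT p210 library has that mark. The run is thus spread unevenly over the 4 groups. It was not a term in any fit, and its part in the interaction was not tested.

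CDK6 is a kinase that pairs with D-type cyclins, phosphorylates the retinoblastoma family and so releases E2F factors at the entry to S phase. In blood cells it is also known as a chromatin-bound cofactor that acts on transcription. BCR-ABL p210 is the fusion tyrosine kinase of chronic myeloid leukaemia, and it drives JAK-STAT, RAS-MAPK and PI3K signalling without outside cytokine. A gene whose dependence on Cdk6 does not change with p210 has an interaction of 0, however strongly it depends on Cdk6. A positive interaction means that the KO minus WT difference was higher after p210 than before, and a negative one that it was lower.

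The marker genes of the label were present in part. Kit, the SCF receptor, lay at 247 to 471 CPM (library counts on a common scale) in untransformed libraries and at 14.9 to 59.1 CPM in p210 libraries. Ly6a, which encodes Sca-1, lay at 13.6 to 112 CPM in untransformed libraries and at 0.553 to 29.1 CPM in p210 libraries. Markers of neutrophils and monocytes were not at 0. Their summed level was 1222 to 13223 CPM in WT untransformed and 27994 to 38923 CPM in KO untransformed libraries. After p210 it was 5009 to 11752 CPM in WT and 10971 to 29519 CPM in KO libraries. In these bulk samples, fewer cells of a type and less RNA per cell cannot be told apart. Library totals ran from 20270348 to 50303271 counts. Libraries of a group differed by more than counting noise, with a chi-square per gene of 15.3 to 167.5 where 1 is noise.

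Cdk6 itself (chromosome 5, 3341485 to 3531008, GRCm38) was set against the labels first. Its value covers the whole gene, and since the removed part is not given, reads left in KO libraries cannot be placed inside or outside it. It stood at 970, 999, 1213 and 1305 CPM in WT untransformed libraries and at 271, 258 and 236 CPM in KO untransformed libraries. In p210 cells it stood at 576, 606 and 597 CPM in WT and at 326, 578, 245 and 163 CPM in KO replicates 1 to 4. The library labelled KO p210 replicate 2 was thus inside the WT p210 range, and the other 3 KO p210 libraries were below it. The Cdk6 interaction was 1.28 ± 0.45 on the log2 scale (SE throughout for fold changes) and did not pass the test (adjusted p = 0.272). Without the library labelled KO p210 replicate 2 it was 0.86 (adjusted p = 0.321). The counts of genes and of list members below are given also without that library where they are led with, and single genes only where stated.

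Of 14512 genes tested, 5 passed an adjusted p of 0.05, which is 0.0345% of the genes, and all 5 interactions were negative. They were Arhgef5, Tceal8, Slc43a1, Ifitm2 and Nxpe5. At an unadjusted p under 0.05, 2041 genes (14.1%) were counted, 832 positive (5.73%) and 1209 negative (8.33%). The median interaction over all genes tested was -0.03. Under a fit that keeps each line as a block, none of the 5 passed (0 genes past the threshold, 1142 at an unadjusted p under 0.05). Without the library labelled KO p210 replicate 2 none passed either, with 1815 at an unadjusted p under 0.05, and the 5 genes then had adjusted p from 0.0606 to 0.0825. Leaving out WT untransformed replicate 2 or 4, or KO untransformed replicate 1 or 3, also gave 0, and leaving out WT p210 replicate 3 gave 46. DESeq2 called 413 genes, 137 positive and 276 negative, among them all 5.

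Arhgef5, Tceal8 and Slc43a1 had the same shape: present in 3 groups and nearly silent in KO p210 libraries. Arhgef5 (chromosome 6, 43265582 to 43289320), a guanine nucleotide exchange factor, stood at 17.4, 20.6, 9.75 and 14.5 CPM in WT untransformed, 4.68, 2.98 and 7.66 CPM in KO untransformed and 17.2, 5.14 and 12.03 CPM in WT p210 libraries. In the 4 KO p210 libraries it had 2 counts in all. The KO untransformed libraries were below all WT untransformed ones, and the KO p210 libraries were far below every other library. The interaction was -7.33 ± 0.88 (adjusted p = 0.0306 by edgeR's quasi-likelihood test). Since the KO p210 value rests on 2 counts, the ratio of WT p210 to KO p210 was 606 with a 95% counting interval of 167 to 5010.

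Tceal8 (chromosome X, 136168984 to 136172342), of the TCEA-like family, stood at 16.2, 27.3, 30.8 and 32.4 CPM in WT untransformed and 16.6, 25.7 and 8.86 CPM in KO untransformed libraries. In WT p210 libraries it stood at 9.14, 8.87 and 7.72 CPM, and in KO p210 libraries it had 4 counts, all in replicate 4. Before p210 the genotypes overlapped, and after p210 they did not. The interaction was -7.01 ± 0.89 (adjusted p = 0.0306). Slc43a1 (chromosome 2, 84838850 to 84863594), which encodes the large neutral amino acid transporter LAT3, stood at 38.4, 39.5, 35.6 and 40.4 CPM in WT untransformed libraries. It stood at 19.1, 15.8 and 21.5 CPM in KO untransformed, 8.57, 7.22 and 2.54 CPM in WT p210 and 0.314, 0.0772, 0.0873 and 0.117 CPM in KO p210 libraries. KO was below WT without overlap in both states, and KO minus WT was -1.03 ± 0.35 before p210 (adjusted p = 0.0681) and -5.44 ± 0.46 after it (adjusted p = 0.000245). The interaction was -4.41 ± 0.58 (adjusted p = 0.0306). In all 3 genes the library labelled KO p210 replicate 2 was as low as the other KO p210 libraries, although its Cdk6 level was that of WT. Without that library the interactions were -7.80 for Arhgef5, -6.63 for Tceal8 and -4.22 for Slc43a1.

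Ifitm2 was the gene whose genotype difference changed sign. It encodes an interferon-induced membrane protein of the family that restricts virus entry. It stood at 231, 248, 218 and 257 CPM in WT untransformed and at 322, 296 and 323 CPM in KO untransformed libraries. In p210 cells it stood at 310, 306 and 295 CPM in WT and at 240, 223, 261 and 221 CPM in KO libraries. KO libraries were above WT before p210 and below WT after it, with no overlap in either state. KO minus WT was 0.39 ± 0.07 before (adjusted p = 0.00911) and -0.36 ± 0.07 after p210 (adjusted p = 0.0198), and the interaction was -0.76 ± 0.11 (adjusted p = 0.0409). Only 2 of 14512 genes passed in both states with opposite sign. The other was Eprs, described below. The neighbouring Ifitm3, whose start lies on the same strand of chromosome 7, stood at 268, 274, 288 and 259 CPM in WT untransformed and 417, 444 and 412 CPM in KO untransformed libraries. After p210 it stood at 226, 191 and 172 CPM in WT and 95.9, 153, 108 and 161 CPM in KO libraries. Its groups did not overlap in either state and its order also turned round, with an interaction of -1.24 ± 0.23 (adjusted p = 0.0942). Reads that both genes could share were not examined.

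The upstream sequences of both Ifitm genes are shown because the pair turned in the same direction. Those of B2m and E2f7, named below under antigen presentation and the cell cycle, are shown beside them as examples that hold a site. Each is the stretch of the RefSeq upstream sequence (GRCm38.p6) that lies outside the gene's extent in the deposited annotation, 5′ to 3′ on the gene's strand. Capitals mark an interferon-stimulated response element (ISRE) or an E2F site of the form TTTCCCGC, on either strand. In Ifitm3 neither form was found in this window. The same held for Arhgef5 and Nxpe5, whose sequences are not shown. An ISRE stood upstream of 2 of 17 class I antigen presentation genes (11.8%), so B2m does not stand for its list.
Ifitm2, minus strand, chr7:140955988-140956211: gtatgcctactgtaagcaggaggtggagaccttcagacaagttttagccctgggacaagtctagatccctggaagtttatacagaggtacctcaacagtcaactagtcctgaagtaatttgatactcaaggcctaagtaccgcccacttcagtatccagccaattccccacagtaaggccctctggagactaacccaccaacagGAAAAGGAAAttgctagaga
Ifitm3, minus strand, chr7:141010771-141010994: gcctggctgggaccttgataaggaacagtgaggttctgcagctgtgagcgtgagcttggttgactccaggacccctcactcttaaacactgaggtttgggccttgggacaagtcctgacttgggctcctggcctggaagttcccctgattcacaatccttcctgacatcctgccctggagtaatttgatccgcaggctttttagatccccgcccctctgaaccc
B2m, plus strand, chr2:122147437-122147685: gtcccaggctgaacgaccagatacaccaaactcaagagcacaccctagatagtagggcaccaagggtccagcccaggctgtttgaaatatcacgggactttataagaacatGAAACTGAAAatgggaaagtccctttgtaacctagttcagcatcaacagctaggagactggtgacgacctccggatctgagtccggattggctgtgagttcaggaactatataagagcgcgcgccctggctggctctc
E2f7, plus strand, chr10:110745189-110745438: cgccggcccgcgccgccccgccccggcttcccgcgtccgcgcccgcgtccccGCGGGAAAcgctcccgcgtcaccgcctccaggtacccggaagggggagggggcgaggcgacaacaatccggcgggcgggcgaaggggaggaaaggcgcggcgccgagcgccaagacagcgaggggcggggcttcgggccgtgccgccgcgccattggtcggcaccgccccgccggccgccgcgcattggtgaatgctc

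Nxpe5 (chromosome 5, 138225898 to 138253363), of the neurexophilin and PC-esterase domain family, differed between genotypes before p210 and not after it. It stood at 51.4, 51.6, 34.7 and 43.9 CPM in WT untransformed and at 144, 160 and 162 CPM in KO untransformed libraries. In p210 cells it stood at 44.2, 24.2 and 28.1 CPM in WT and at 28.1, 26.6, 19.4 and 30.1 CPM in KO libraries. The KO untransformed libraries stood above all others, and the 2 p210 groups overlapped. KO minus WT was 1.78 ± 0.21 before (adjusted p = 0.00246) and -0.31 ± 0.21 after p210 (adjusted p = 0.460), with an interaction of -2.08 ± 0.30 (adjusted p = 0.0409).

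**Figure D1:**
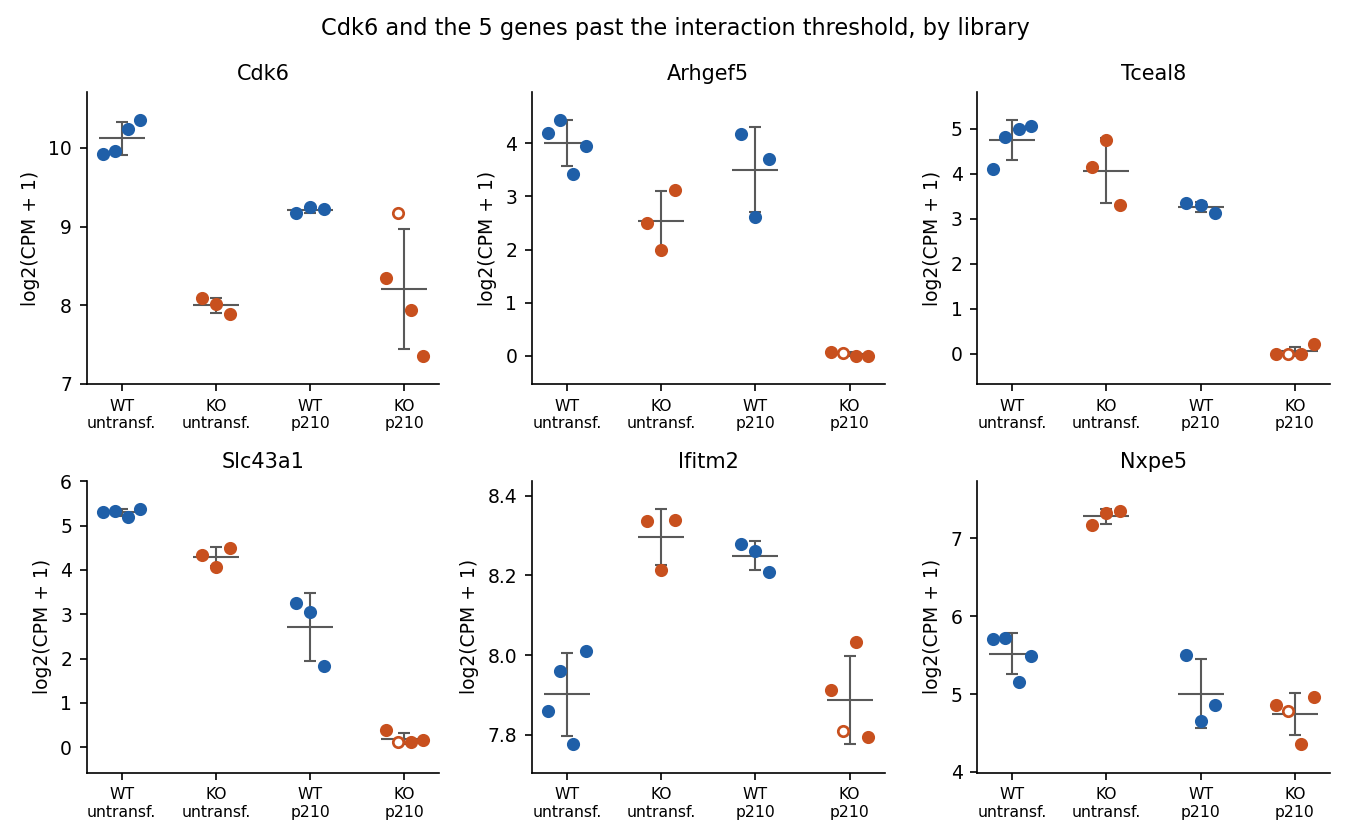
Expression of Cdk6 and the 5 genes past the threshold, as log2(CPM + 1) on the vertical axis, in the 14 libraries by group; dots are libraries, the open dot is the library labelled KO p210 replicate 2, and bars are the mean ± SD of each group. Arhgef5, Tceal8 and Slc43a1 lie near 0 in the 4 KO p210 libraries, Ifitm2 turns from higher to lower in KO, and Nxpe5 is high in the 3 KO untransformed libraries.

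Within lines, the change with p210 is given as a description, since the 5 genes were chosen by the interaction in these same libraries. On the scale of log2(CPM + 1), Ifitm2 changed by 0.42, 0.30 and 0.43 in the 3 WT lines and by -0.42, -0.40 and -0.54 in the 3 KO lines, where the second KO value, here and below, rests on the library labelled KO p210 replicate 2. The Nxpe5 differences were -0.21, -1.06 and -0.29 in WT lines and -2.32, -2.55 and -2.39 in KO lines. The Slc43a1 differences were -2.04, -2.30 and -3.37 in WT lines and -3.94, -3.97 and -4.33 in KO lines. In each of the 5 genes every KO line changed lower than every WT line, with or without that second line, and the choice of the genes leads to this order. Over all genes tested, KO lines were below WT lines in 8.32% and above them in 7.19%, so that an order without overlap occurred in 15.5% of genes. With 3 lines against 3, an exact permutation test cannot go below 0.1.

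**Figure D2:**
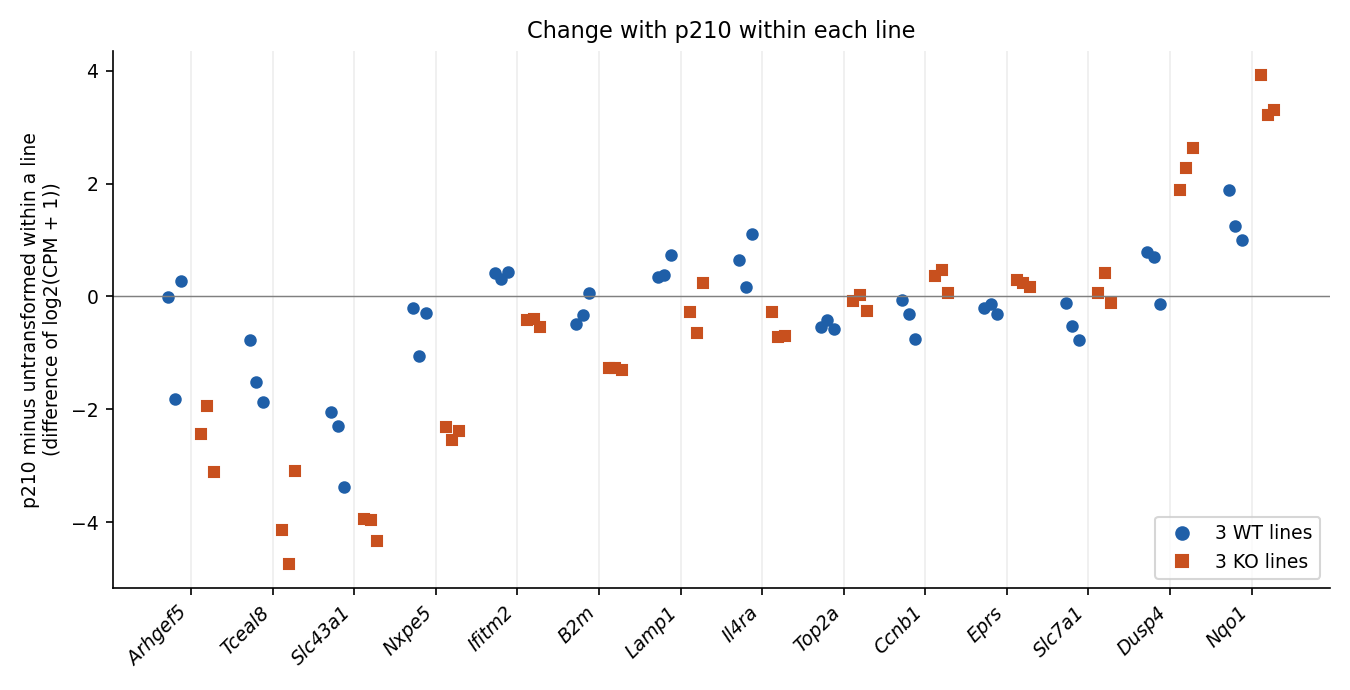
Change with p210 within each line, as the difference of log2(CPM + 1) between the p210 and the untransformed library of a line, for 14 genes; blue circles are the 3 WT lines and orange squares the 3 KO lines. Ifitm2 lies above 0 in the 3 WT lines and below 0 in the 3 KO lines, and the KO lines lie above the WT lines for Dusp4 and Nqo1.

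A further 24 genes had an adjusted p from 0.05 to 0.1, so that 29 genes (0.2%) lay under 0.1. They did not pass the threshold, and were chosen after their values were seen. Of the 29, 26 were negative (0.179%) and 3 positive (0.0207%). In lines, 23 of the 29 had all KO lines below all WT lines, 3 had them above and 3 overlapped, which their choice by the interaction again leads to. Of the 26 negative genes, 18 had a KO minus WT difference that passed in p210 cells only, 6 in untransformed cells only, and 2 in both. Among the 1209 negative genes counted before adjustment, 450 passed in untransformed cells only, 253 in p210 cells only and 479 in neither.

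**Figure D3:**
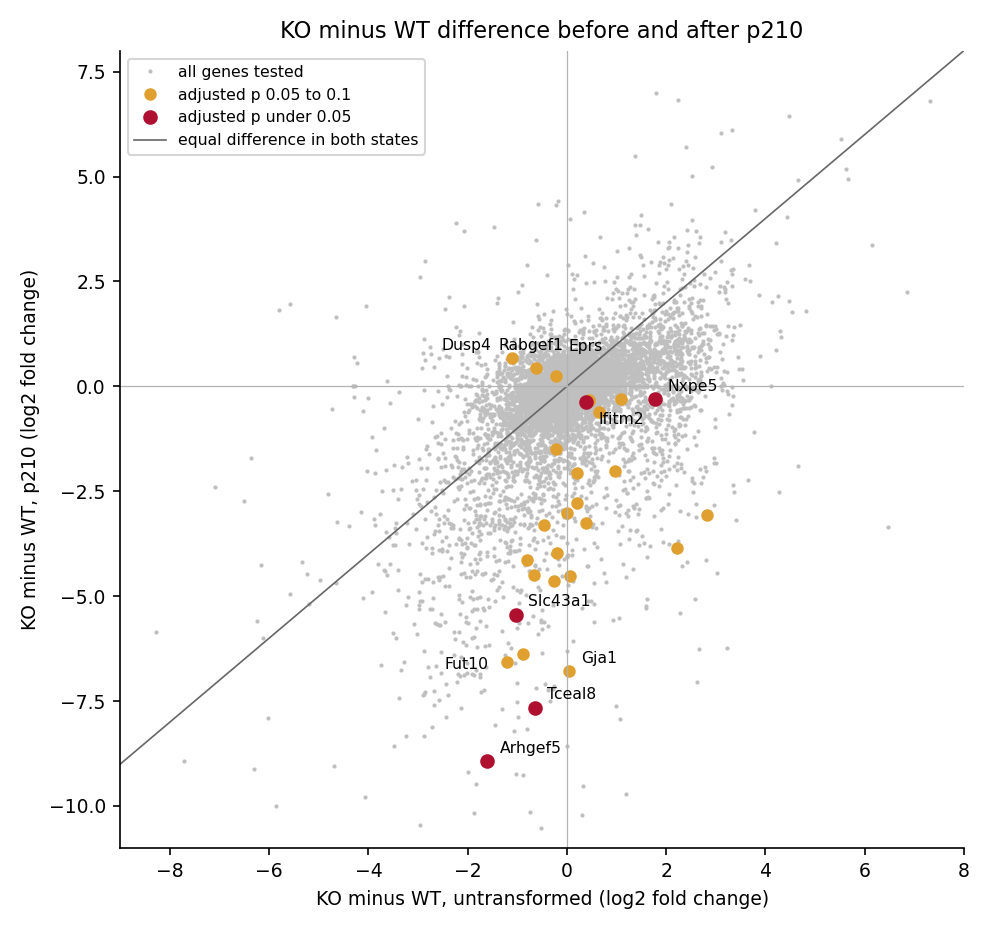
KO minus WT log2 fold change in untransformed cells (horizontal) against p210 cells (vertical) for the 14512 genes tested; the line marks an equal difference in both states. The 5 genes past the threshold are red and the 24 genes with adjusted p from 0.05 to 0.1 are yellow, and all but the 3 positive genes Eprs, Dusp4 and Rabgef1 lie below the line.

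Of the 24 genes, 10 were under 0.5 CPM in every KO p210 library and 14 were not. The share of all genes under that level there was not counted. Some of the 10 were also low in WT p210 libraries, such as Thnsl2 at 0.538 to 1.42 CPM and Gprc5c at 0.134 to 1.32 CPM. Fut10, a fucosyltransferase, stood at 4.55, 3.70 and 1.22 CPM in WT p210 libraries and had 3 counts in the 4 KO p210 libraries, with an interaction of -5.37 ± 0.81 (adjusted p = 0.0575). Gja1, the gap junction protein connexin 43, stood at 17.2, 7.09 and 3.40 CPM in WT p210 and at 0 to 0.157 CPM in KO p210 libraries, with -6.83 ± 1.04 (adjusted p = 0.0575). Before p210, Gja1 overlapped between genotypes, at 5.27 to 21.6 CPM in WT and 13.8 to 14.5 CPM in KO. Tmem176b, a membrane protein of myeloid cells, was low without being under that level. It stood at 188, 87.2 and 34.0 CPM in WT p210 and at 6.74, 4.79, 0.960 and 4.45 CPM in KO p210 libraries, after 226 to 290 CPM in WT and 176 to 257 CPM in KO untransformed libraries. Its interaction was -4.37 ± 0.77 (adjusted p = 0.0912).

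Among the 29 were also Mkrn3 and Peg12, which lie near each other. These paternally expressed genes of one imprinted domain on chromosome 7 had interactions of -3.02 ± 0.50 (adjusted p = 0.0725) and -3.84 ± 0.67 (adjusted p = 0.0879). Peg12 stood at 4.11, 3.33 and 1.98 CPM in WT p210 and at 0 to 0.234 CPM in KO p210 libraries. Mkrn3 was low in WT p210 libraries too, at 0.941 to 1.63 CPM. Imprinted genes as a list were split: of 16 tested, 8 interactions had a positive and 8 a negative sign, with a median of -0.06. At an unadjusted p under 0.05, 3 of them were negative and 0 positive. Rtl8c, a retrotransposon-derived gene on chromosome X, had an interaction of -3.33 ± 0.54 (adjusted p = 0.0725). Hspb11 and Lrrc42, which start close together on opposite strands of chromosome 4, had interactions of -2.26 ± 0.39 (adjusted p = 0.0863) and -1.28 ± 0.24 (adjusted p = 0.0966). Lrrc42 stood at 8.13, 10.1 and 7.51 CPM in WT p210 and 3.14, 3.75, 2.15 and 3.12 CPM in KO p210 libraries, where the groups did not overlap. Whether near neighbours occur among the 29 more often than chance gives was not tested. The others of near silence or low level in KO p210 cells were Oasl2, Thnsl2, Gm16758, 9530077C05Rik, Aldh5a1 and H2-Q6, which had no KO minus WT call before p210, and Gprc5c, Tmem51 and Tmem132a, whose fitted difference was 2.82, 2.21 and 0.96 before p210 and -3.06, -3.85 and -2.03 after it. Zfp703, Impdh1, Mmgt2 and Ifitm3 passed as higher in KO before p210 and did not pass after it.

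The near silence of a gene in 1 group was counted over all genes by a rule chosen after these values were seen, with under 0.5 CPM in every library of the group and at least 2 CPM in every other library. KO p210 cells had 9 such genes, and the 3 other groups had 0 each. They were Arhgef5, Tceal8, Slc43a1, Gja1, Rtl8c, Hlf, Col16a1, H1fx and Fam174b. Hlf, a transcription factor of haematopoietic stem cells, stood at 12.8, 3.09 and 50.5 CPM in WT p210 libraries and at 0.157, 0.116, 0.175 and 0.312 CPM in KO p210 libraries, with an interaction of -4.82 ± 1.17 (adjusted p = 0.160). Col16a1, a collagen chain, and H1fx, a linker histone, had interactions of -5.05 ± 1.03 (adjusted p = 0.118) and -3.44 ± 0.67 (adjusted p = 0.106). The reverse, at least 2 CPM in every library of a group and under 0.5 CPM elsewhere, held for 2 genes of WT p210 cells, Pdcd1 and Cdh20, and for 0 genes of the other groups. Pdcd1, the T-cell checkpoint receptor PD-1, stood at 295, 40.7 and 10.2 CPM in WT p210 libraries and at no more than 0.314 CPM elsewhere, and its interaction of -9.40 ± 3.75 did not pass (adjusted p = 0.308).

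The 3 positive genes among the 29 encode a translation enzyme and 2 signalling regulators. Eprs, the glutamyl-prolyl-tRNA synthetase, stood at 349, 343, 352 and 335 CPM in WT untransformed and 280, 294 and 314 CPM in KO untransformed libraries. In p210 cells it stood at 303, 312 and 283 CPM in WT and 340, 348, 371 and 354 CPM in KO libraries. KO was below WT before p210 and above it after p210 with no overlap, as -0.22 (adjusted p = 0.0303) and 0.24 (adjusted p = 0.0423), and the interaction was 0.46 ± 0.08 (adjusted p = 0.0942). Dusp4, a phosphatase that inactivates ERK and other MAP kinases, stood at 24.2, 30.8, 27.1 and 22.96 CPM in WT untransformed and 15.8, 12.04 and 8.80 CPM in KO untransformed libraries. It stood at 42.6, 50.5 and 24.8 CPM in WT p210 and 61.1, 62.4, 66.8 and 59.7 CPM in KO p210 libraries. The order of the genotypes turned round without overlap, with an interaction of 1.78 ± 0.33 (adjusted p = 0.0942). Rabgef1, an exchange factor for the endosomal GTPase RAB5, had an interaction of 1.06 ± 0.20 (adjusted p = 0.0966).

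Gene lists gave the programmes. No member of the 35 lists passed the threshold in the interaction, so each list is described by its median and by its members at an unadjusted p under 0.05, beside the 5.73% positive and 8.33% negative of all genes. In the fit without a block, cell-cycle lists had more positive members than that background. Lysosome, antigen presentation, interferon and stem-cell factor lists had more negative ones there, and so did others. Negative shares were 28.6% of 14 stromal and endothelial, 27.3% of 11 B lymphoid, 20% of 20 erythroid and 18.8% of 16 imprinted genes. They were 17.1% of 41 cytokine and growth factor receptors, 16.7% of 18 BCL2 family and 14.3% of 14 T and NK lymphoid genes. Positive shares in these lists were 0% to 7.14%. No list was tested as a set. With line as a block the shares of all genes were 2.93% positive and 4.94% negative, and when KO p210 replicate 2 was left out they were 5.3% and 7.19%. The list counts under these 2 fits stand against those shares. With line as a block, 1 of 38 replication genes was positive and 1 of 19 Hox genes was negative, near the shares of all genes. KO minus WT passed as higher in KO in 8.73% of all genes and as lower in 6.5% before p210, and in 0.882% and 3.56% after it.

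**Figure D4:**
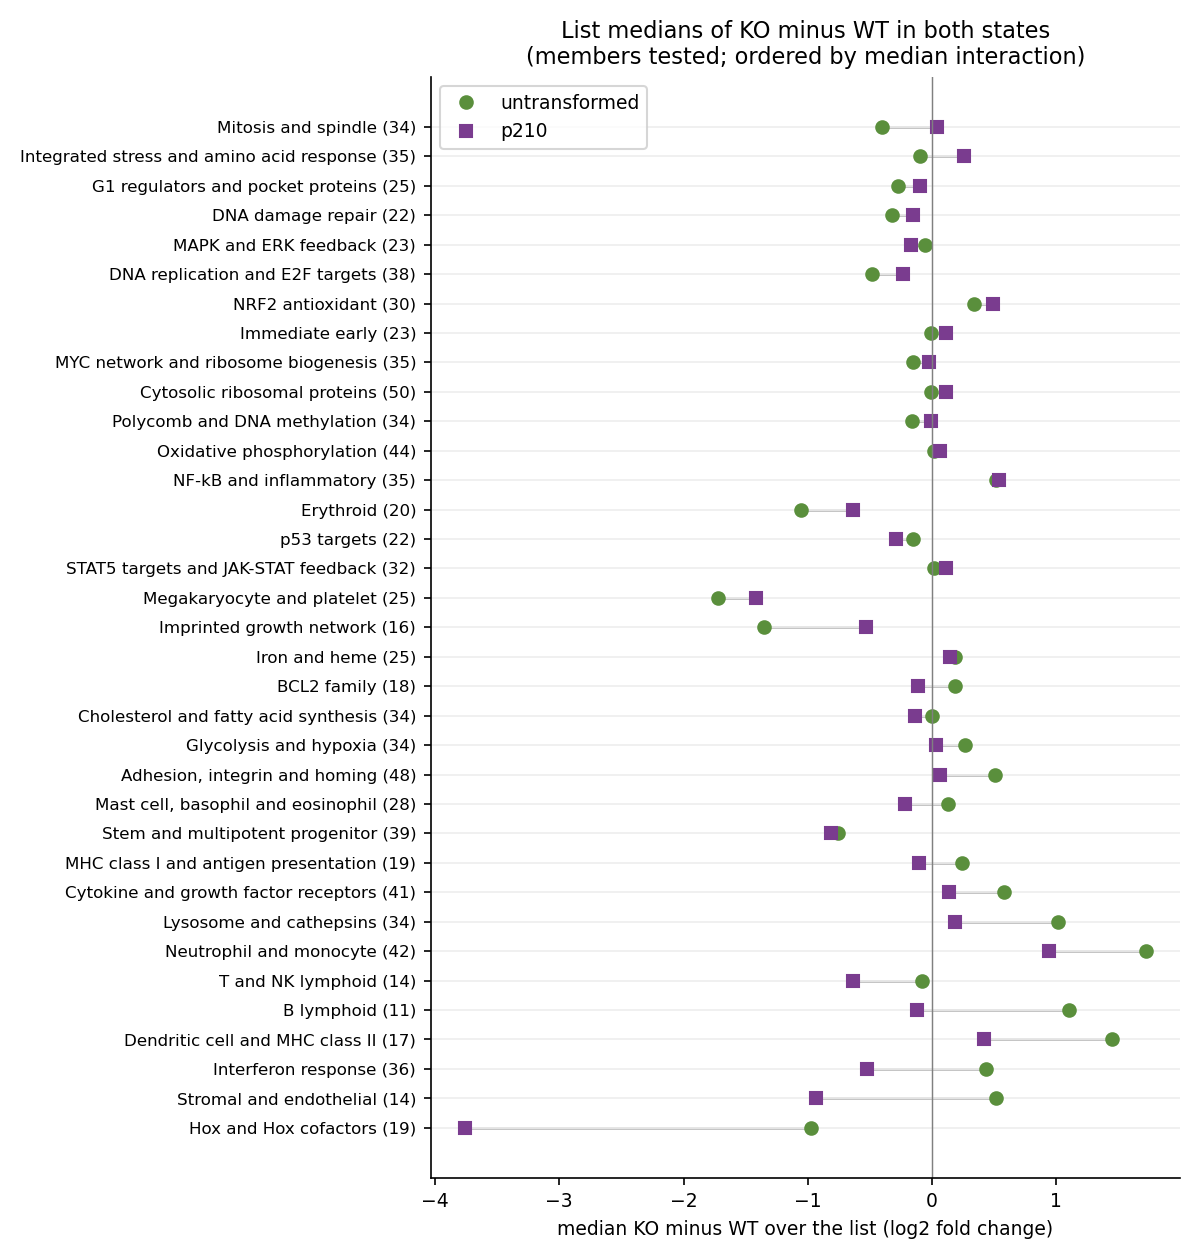
Median KO minus WT log2 fold change of each of the 35 lists in untransformed cells (green circles) and p210 cells (purple squares), with the number of members tested in brackets, ordered by median interaction. The median of mitosis genes goes from -0.40 to 0.04, lysosome genes from 1.01 to 0.18, interferon genes from 0.43 to -0.52 and Hox genes from -0.97 to -3.76. Of the 19 Hox genes, 4 had 0 counts in a whole group, so the size of their fold changes is not fixed by the counts.

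Many cell-cycle genes were below WT in KO cells before p210, and fewer or none were after it. Of 34 mitosis and spindle genes, 21 were positive and 0 negative in the interaction at an unadjusted p under 0.05, and all 34 had a positive sign. The median interaction was 0.42, from a median KO minus WT of -0.40 before and 0.04 after p210. Both genotypes moved: the median p210 minus untransformed change was -0.32 in WT and 0.18 in KO cells. In lines, 14 of 34 had all KO lines above all WT lines and 0 had them below. Before p210, 14 of the 34 passed as lower in KO, and after p210 0 passed in either direction. Top2a, the DNA topoisomerase of dividing cells, stood at 971, 967, 1012 and 880 CPM in WT untransformed and 696, 693 and 752 CPM in KO untransformed libraries. After p210 it stood at 664, 723 and 679 CPM in WT and 659, 708, 698 and 629 CPM in KO libraries, where the groups overlapped. Its interaction was 0.39 ± 0.10 (adjusted p = 0.171).

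Mki67, the proliferation marker Ki-67, stood at 599, 607, 818 and 704 CPM in WT untransformed and 438, 463 and 497 CPM in KO untransformed libraries, then at 455, 488 and 474 CPM in WT p210 and 359, 398, 563 and 503 CPM in KO p210 libraries. The genotypes were apart before p210 and overlapped after it, with an interaction of 0.50 ± 0.21 (adjusted p = 0.334). Ccnb1, the mitotic cyclin B1, had an interaction of 0.78 ± 0.20 (adjusted p = 0.171), Nuf2, of the kinetochore, 0.53 ± 0.14 (adjusted p = 0.171), and Bub1, a spindle checkpoint kinase, 0.44 ± 0.13 (adjusted p = 0.220). Kif11, the mitotic kinesin Eg5, gave 0.64 ± 0.22 (adjusted p = 0.270). These 4 were chosen after their values were seen. Without the library labelled KO p210 replicate 2, 15 mitosis genes were positive and 0 negative. The line block left 10 positive and 0 negative.

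DNA replication genes differed from mitosis genes in that a gap remained after p210. Of 38 genes of DNA replication and other E2F targets, 8 were positive and 0 negative at an unadjusted p under 0.05, with a median interaction of 0.16. The line block left 1 positive and 0 negative (median 0.15), while 7 and 0 were counted when KO p210 replicate 2 was left out. The median KO minus WT was -0.48 before and -0.24 after p210, and 27 of the 38 passed as lower in KO before p210 and 11 after it. Replication genes fell with p210 in both genotypes, by a median p210 minus untransformed change of -0.65 in WT and -0.40 in KO cells. The difference in behaviour between the 2 lists was not tested. Mcm6, of the replicative helicase, stood at 728 to 783 CPM in WT untransformed (median 752) and 523, 496 and 601 CPM in KO untransformed libraries, and at 455, 511 and 378 CPM in WT p210 and 366, 419, 406 and 393 CPM in KO p210 libraries. The interaction was 0.30 ± 0.14 (adjusted p = 0.361). Rrm1, the large subunit of ribonucleotide reductase, had 0.33 ± 0.11 (adjusted p = 0.269). Prim1, the DNA primase, stood below WT in every KO library of both states: 83.5, 88.0, 89.7 and 98.4 CPM against 58.4, 57.2 and 62.8 CPM before p210, and 62.7, 57.1 and 53.4 CPM against 45.6, 48.5, 44.96 and 47.7 CPM after it. Its interaction was 0.29 ± 0.10 (adjusted p = 0.272).

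The regulators of G1 were positive in 5 of 25 genes and negative in 0, with a median interaction of 0.20, and in 3 and 0 with line as a block. Cdk6 is 1 of the 5. E2f7, an E2F repressor that is itself an E2F target, stood at 33.4, 36.5, 46.8 and 44.0 CPM in WT untransformed and 18.7, 16.1 and 20.2 CPM in KO untransformed libraries. After p210 it stood at 25.1, 23.9 and 25.1 CPM in WT and 16.6, 14.6, 16.7 and 20.5 CPM in KO libraries. KO was below WT without overlap in both states, and the interaction was 0.60 ± 0.20 (adjusted p = 0.258). Ccna2, cyclin A2, gave 0.60 ± 0.20 (adjusted p = 0.261) and E2f3, an activating E2F, 0.58 ± 0.18 (adjusted p = 0.242). Cdk4, a G1 kinase related to CDK6, had an interaction of 0.01 ± 0.10 (adjusted p = 0.968). It stood at 484 to 601 CPM in untransformed and 403 to 462 CPM in p210 libraries. Genes of DNA damage repair were positive in 4 of 22 and negative in 0, with a median of 0.20, and 13 of 22 passed as lower in KO before p210 and 0 after it. Their most abundant member, the mismatch repair gene Msh6, gave 0.25 ± 0.17 (adjusted p = 0.524). Of the most abundant members of the Polycomb and DNA methylation list (6 positive and 1 negative of 34, and 2 and 1 with line as a block), Dnmt1, the maintenance DNA methyltransferase, had 0.41 ± 0.12 (adjusted p = 0.219) and Rbbp4, a histone-binding subunit, 0.21 ± 0.10 (adjusted p = 0.347).

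Lysosome genes were higher in KO than in WT before p210 and nearer to WT after it. Of 34 lysosome and cathepsin genes, 19 were negative and 0 positive at an unadjusted p under 0.05, and all 34 had a negative sign. Under the line block 7 were negative and 0 positive (median -0.72), while 15 and 0 were counted when KO p210 replicate 2 was left out. The median interaction was -0.80, from a median KO minus WT of 1.01 before and 0.18 after p210. Before p210, 17 of the 34 passed as higher in KO, and after p210 0 passed. Psap, the precursor of the saposins, stood at 1600, 1134, 465 and 790 CPM in WT untransformed and 3988, 5059 and 3027 CPM in KO untransformed libraries, and at 2650, 718 and 1699 CPM in WT p210 and 1181, 1874, 1882 and 3836 CPM in KO p210 libraries. The groups were apart before p210 and overlapped after it, with an interaction of -1.64 ± 0.71 (adjusted p = 0.336). Ctsd, cathepsin D, gave -0.99 ± 0.46 (adjusted p = 0.357).

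Ctsa, cathepsin A, had less spread in p210 libraries. It stood at 275, 262, 169 and 221 CPM in WT untransformed and 506, 593 and 437 CPM in KO untransformed libraries, and at 433, 433 and 419 CPM in WT p210 and 501, 446, 414 and 538 CPM in KO p210 libraries. All 3 KO lines lay below all 3 WT lines in the p210 minus untransformed difference, and the interaction was -0.99 ± 0.22 (adjusted p = 0.138). Lamp1, a lysosomal membrane glycoprotein, gave -0.79 ± 0.24 (adjusted p = 0.228), Grn, progranulin, -0.97 ± 0.31 (adjusted p = 0.249), and Atp6ap1, an accessory subunit of the proton pump, -0.80 ± 0.22 (adjusted p = 0.206). These 4 were chosen after their values were seen. The summed neutrophil and monocyte markers were lowest in WT untransformed replicate 3, as Psap was, and their part in this result was not tested. By list median, p210 minus untransformed was 0.81 in WT and -0.14 in KO cells for lysosome genes. For the marker genes it was 0.34 in WT and -0.22 in KO cells. The lysosome sum was 4547 to 8734 CPM in WT untransformed and 10320 to 15030 CPM in WT p210 libraries. The marker sum was 1222 to 13223 CPM and 5009 to 11752 CPM in the same groups. Mpo, which is part of the marker sum, stood at 38.4 to 5634 CPM and 32.1 to 409 CPM there. In the list of those markers 3 of 42 genes were negative (7.14%, beside 8.33% of all genes) and 0 positive. The counts were 1 and 0 when KO p210 replicate 2 was left out, and 4 and 0 with line as a block. The median interaction was -0.85, with 28 negative and 14 positive signs. The most abundant of them, Lyz2 and Mpo, gave -1.48 ± 0.92 and 0.25 ± 1.74 (adjusted p = 0.481 and 0.964).

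Class I antigen presentation genes were also more often negative. Of 19 genes, 8 were negative and 1 positive at an unadjusted p under 0.05, with a median interaction of -0.36. The counts were 7 and 1 with line as a block and 8 and 1 when KO p210 replicate 2 was left out. B2m, the light chain of class I molecules, stood at 1307, 1518, 874 and 1152 CPM in WT untransformed and 1977, 2113 and 2022 CPM in KO untransformed libraries. After p210 it stood at 927, 1209 and 910 CPM in WT and 824, 880, 862 and 820 CPM in KO libraries. KO was above WT before p210 and below it after p210 without overlap, with KO minus WT of 0.75 (adjusted p = 0.0119) and -0.26 (adjusted p = 0.377). The interaction was -1.01 ± 0.22 (adjusted p = 0.130). The heavy chain genes H2-K1 and H2-D1 gave -0.82 ± 0.30 (adjusted p = 0.276) and -0.97 ± 0.30 (adjusted p = 0.241). Of the 2 most abundant members, the chaperones Calr and Pdia3, the interactions were -0.36 ± 0.30 and -0.09 ± 0.15 (adjusted p = 0.613 and 0.817).

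Nonclassical class I genes of the H2-Q cluster were lower in KO p210 cells alone. H2-Q6 stood at 40.8, 51.4 and 66.2 CPM in WT p210 and 0.941, 5.56, 5.47 and 1.36 CPM in KO p210 libraries, after 25.2 to 42.9 CPM in WT and 28.9 to 35.8 CPM in KO untransformed libraries. H2-Q7 stood at 21.7, 29.1 and 34.8 CPM in WT p210 and 0.732, 2.70, 4.66 and 0.741 CPM in KO p210 libraries. The p210 groups were apart in both genes and the untransformed groups overlapped. The interactions were -3.76 ± 0.68 for H2-Q6 (adjusted p = 0.0942) and -3.18 ± 0.71 for H2-Q7 (adjusted p = 0.138), and H2-Q4 gave -2.33 ± 0.48 (adjusted p = 0.118). These genes are close copies of each other, so how reads were shared between them is uncertain.

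Interferon response genes were negative in 19 of 36 and positive in 0, and all 36 had a negative sign. Keeping line as a block gave 8 negative and 0 positive (median -0.94), while 15 and 0 were counted when KO p210 replicate 2 was left out. The median interaction was -1.26, from a median KO minus WT of 0.43 before and -0.52 after p210. Before p210, 7 passed as higher in KO, and after p210 4 passed as lower. Of the most abundant members, Samhd1, a dNTP hydrolase, gave -0.23 ± 0.27 (adjusted p = 0.728) and Bst2, tetherin, -0.29 ± 0.22 (adjusted p = 0.587). The next 4 genes were chosen after their values were seen. Stat2, a transducer of interferon signals, stood at 26.5, 25.3, 16.8 and 18.1 CPM in WT untransformed and 39.9, 40.7 and 32.8 CPM in KO untransformed libraries, and overlapped after p210 at 39.9 to 53.6 CPM in WT and 38.3 to 46.9 CPM in KO. Its interaction was -0.84 ± 0.24 (adjusted p = 0.211). Irf9, which binds DNA with the STATs, gave -0.74 ± 0.20 (adjusted p = 0.190). Oasl2, of the oligoadenylate synthetase family, stood at 1.85, 1.14 and 2.54 CPM in WT p210 and at 0 to 0.116 CPM in KO p210 libraries, with 6.65 to 16.7 CPM in WT and 6.23 to 14.8 CPM in KO untransformed libraries. Its interaction was -4.57 ± 0.77 (adjusted p = 0.0848). Usp18, which removes ISG15 from proteins, stood at 16.0, 17.1 and 25.5 CPM in WT p210 against 2.96 to 5.87 CPM in KO p210 libraries, and gave -1.62 ± 0.50 (adjusted p = 0.237).

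**Figure D5:**
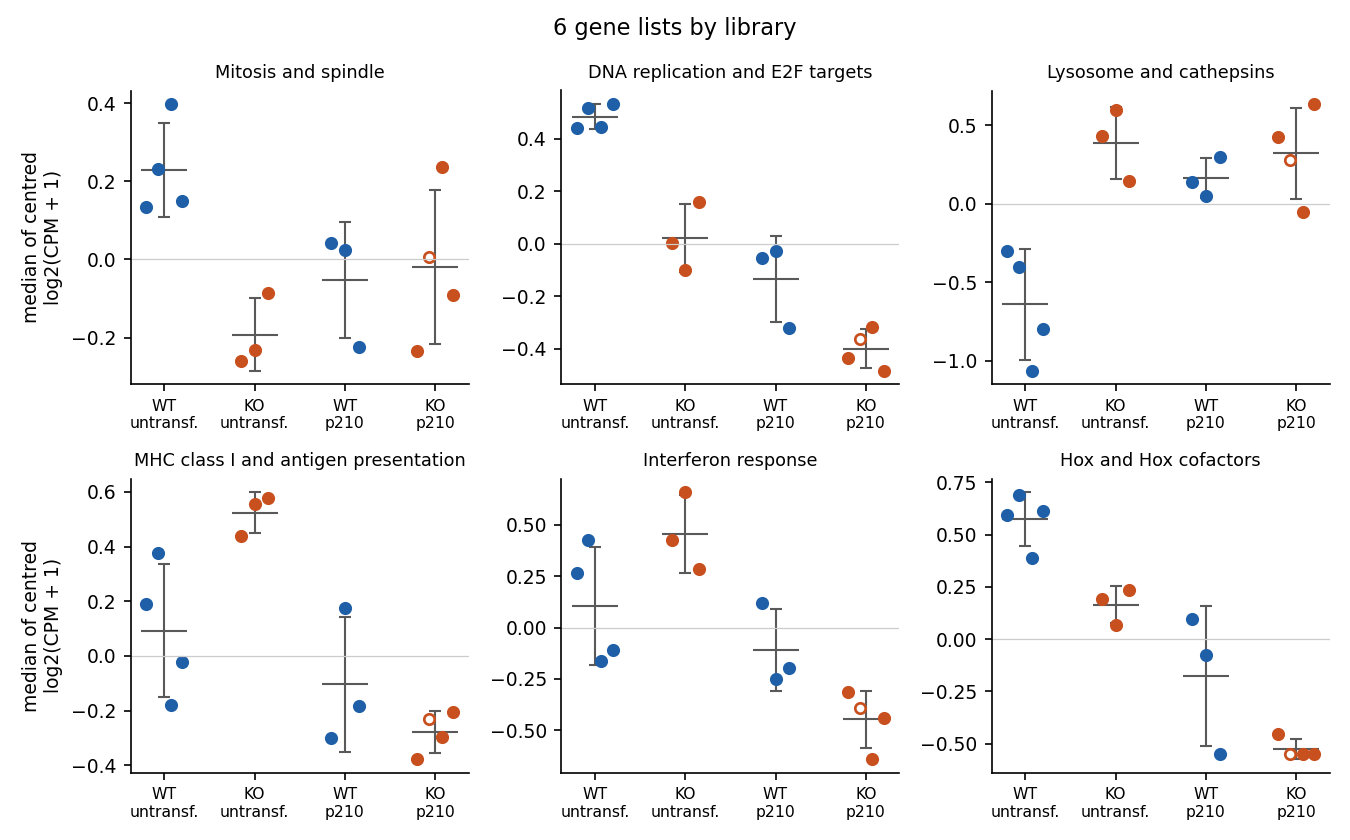
Each library's median over a list of log2(CPM + 1), centred on each gene's mean over the 14 libraries, for 6 lists; dots are libraries, the open dot is the library labelled KO p210 replicate 2, and bars are the group mean ± SD. Mitosis, lysosome and class I genes are apart between genotypes in untransformed cells and overlap in p210 cells; in the Hox list 1 of the 3 WT p210 libraries sits with the 4 KO p210 libraries.

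Hox genes gave the lowest list median of the 35, and it turned with the code. Of 19 Hox and Hox cofactor genes, 9 were negative and 0 positive, with a median interaction of -2.45 from a median KO minus WT of -0.97 before and -3.76 after p210. For 4 of the 19 a whole group had 0 counts, so the size of their fold changes is not fixed by the counts. With such a group set at the level of 3 counts, the median interaction was -1.80. Only 1 was negative and 0 positive under the line block (median -2.68), while 7 and 0 were counted when KO p210 replicate 2 was left out. Meis1, the partner of Hoxa9, stood at 111, 93.5 and 7.16 CPM in WT p210 and 20.9, 12.97, 16.4 and 18.6 CPM in KO p210 libraries, so that WT p210 replicate 3 was the lowest of the 7. Its interaction was -0.93 ± 0.82 (adjusted p = 0.633).

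Hoxa9, a driver of progenitor self-renewal, stood at 81.7 and 8.03 CPM in WT p210 replicates 1 and 2 and at 0 in replicate 3, and at 0 to 0.0582 CPM in KO p210 libraries. Before p210 it stood at 62.4, 29.5, 17.2 and 19.5 CPM in WT and 8.54, 6.23 and 12.2 CPM in KO libraries. Its interaction was -7.66 ± 2.16 (adjusted p = 0.211), with 4.48 in the second code alone, where WT p210 replicate 3 is the only WT p210 library. Hoxa7 had the same library at 0.0508 CPM against 9.95 and 10.6 CPM in the other 2, and gave -6.08 ± 1.53 (adjusted p = 0.171). The list median was 0.46 in the second code and -3.06 in the first. Mecom, the stem-cell factor EVI1, stood at 93.5, 31.1 and 0.558 CPM in WT p210 and at 0.0582 to 0.523 CPM in KO p210 libraries, with an interaction of -5.53 ± 1.55 (adjusted p = 0.209). In the list of stem and multipotent progenitor genes 10 of 39 were negative and 0 positive, with a median interaction of -0.36. That list also holds Meis1, Hoxa9 and Hoxa7, given above, and its median was -0.13 in the first code and -0.03 in the second. The line block gave 3 negative and 0 positive (median -0.44), and leaving out KO p210 replicate 2 gave 7 and 0. Lhx2, the LIM homeobox factor and most abundant member, gave 0.36 ± 0.56 (adjusted p = 0.799). Txnip, a thioredoxin inhibitor, was not silent: it stood at 900, 873, 665 and 809 CPM in WT untransformed, 1316, 1212 and 1344 CPM in KO untransformed, 639, 970 and 614 CPM in WT p210 and 448, 676, 478 and 661 CPM in KO p210 libraries. Its interaction was -1.06 ± 0.26 (adjusted p = 0.171).

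Genes of the integrated stress response and amino acid supply were more often positive than negative. Of 35 genes, 8 were positive and 0 negative, with a median interaction of 0.29 from a median KO minus WT of -0.10 before and 0.26 after p210. Slc3a2, the heavy chain of amino acid exchangers, gave 0.37 ± 0.18 (adjusted p = 0.380), and Psat1, of serine synthesis, 0.95 ± 0.35 (adjusted p = 0.279). Psat1 stood at 538, 551, 860 and 724 CPM in WT untransformed and 362, 291 and 396 CPM in KO untransformed libraries, and overlapped after p210 at 194 to 332 CPM in WT and 212 to 373 CPM in KO. Slc7a1, the cationic amino acid transporter, stood at 146, 156, 170 and 163 CPM in WT untransformed and 121, 105 and 132 CPM in KO untransformed libraries, and at 134, 108 and 99.9 CPM in WT p210 and 126, 142, 155 and 121 CPM in KO p210 libraries. KO was below WT before p210 and the groups overlapped after it, with an interaction of 0.66 ± 0.17 (adjusted p = 0.171). Mthfd2, of mitochondrial folate metabolism, overlapped before p210 and was higher in KO after it, at 68.4, 73.6, 121 and 85.0 CPM against 55.6, 50.0 and 46.9 CPM, and gave 0.87 ± 0.25 (adjusted p = 0.212). Without the library labelled KO p210 replicate 2, 10 members were positive and 0 negative, and with line as a block 6 and 0.

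Of 41 cytokine and growth factor receptors, 7 were negative and 1 positive, with a median interaction of -0.55, and 35 had a negative sign. The counts became 4 and 1 with line as a block and were 7 and 1 when KO p210 replicate 2 was left out. Csf2rb and Csf2rb2, receptor beta chains of the GM-CSF and IL-3 family, gave -1.28 ± 0.38 and -0.98 ± 0.43 (adjusted p = 0.224 and 0.342). Whether these genes share reads was not examined. Csf2rb stood at 294, 238, 154 and 196 CPM in WT untransformed and 573, 655 and 539 CPM in KO untransformed libraries, and overlapped after p210 at 920 to 1586 CPM in WT and 1058 to 2125 CPM in KO. Il4ra, of the IL-4 receptor, was at 100 to 125 CPM in WT and 204 to 236 CPM in KO untransformed libraries and overlapped after p210, with -1.09 ± 0.28 (adjusted p = 0.171). Il6st, the shared chain gp130 of IL-6 receptors, stood at 28.5, 3.70 and 23.5 CPM in WT p210 and 2.51, 0.502, 0.262 and 4.06 CPM in KO p210 libraries, with -3.96 ± 1.07 (adjusted p = 0.198). Socs3, a feedback inhibitor of that receptor, stood at 40.8 to 51.9 CPM in WT and 61.2 to 69.3 CPM in KO untransformed libraries, and at 24.7 to 34.6 CPM in WT and 12.1 to 22.9 CPM in KO p210 libraries. The order turned round without overlap, and the interaction was -1.25 ± 0.29 (adjusted p = 0.141).

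Members of one pathway could differ in sign. In the list of MAPK and ERK feedback genes 2 of 23 were positive and 3 negative: Dusp4 was positive, as given above, and Dusp7, another ERK phosphatase, was negative at -0.95 ± 0.21 (adjusted p = 0.130). The most abundant members of that list, Spred1 and Dusp6, gave 0.27 ± 0.32 and -0.03 ± 0.32 (adjusted p = 0.732 and 0.983). In the NRF2 list 4 of 30 were positive and 3 negative, and 4 and 1 with line as a block. Fth1, the ferritin heavy chain, and Hmox1, heme oxygenase, were the most abundant and gave 0.22 ± 0.44 and -0.22 ± 0.71 (adjusted p = 0.843 and 0.911). Nqo1, a quinone reductase, stood at 13.1, 13.01, 23.3 and 12.7 CPM in WT untransformed and 7.04, 5.76 and 9.45 CPM in KO untransformed libraries, and at 51.2, 32.5 and 47.4 CPM in WT p210 and 121, 61.4, 50.2 and 101 CPM in KO p210 libraries. KO was below WT before p210 and overlapped with it after, and the interaction was 1.99 ± 0.48 (adjusted p = 0.155). Adhesion and homing genes were negative in 5 of 48 and positive in 1, a share near the background, and in 2 and 1 with line as a block. Ccr2, a chemokine receptor of monocytes, had -2.11 ± 0.58 (adjusted p = 0.206), Itga2b, an integrin chain of platelets and early progenitors, 1.46 ± 0.46 (adjusted p = 0.247), and Tln1, talin, 0.30 ± 0.20 (adjusted p = 0.513). Oxidative phosphorylation (2 positive and 0 negative of 44), glycolysis and hypoxia (1 and 1 of 34), cholesterol and fatty acid synthesis (0 and 1 of 34) and p53 targets (0 and 1 of 22) were at or below the background.

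Motifs were counted in the 250 bases upstream of each gene's RefSeq starts, on both strands, with 10462 of 14512 genes matched. The ISRE stood upstream of 12 of 25 interferon genes (48%) and of 3.25% of all genes, and upstream of 44 of 940 negative genes counted before adjustment (4.68%) and 17 of 655 positive ones (2.6%). An E2F site, TTTCGCGC, TTTGGCGC or TTTCCCGC, of which none contains another, stood upstream of 9 of 32 replication genes (28.1%), of 1 of 29 mitosis genes (3.45%) and of 3.4% of all genes. It stood upstream of 40 of 655 positive genes (6.11%) and 22 of 940 negative ones (2.34%). For the other motifs the shares in positive and negative genes were 5.8% and 7.77% for the STAT site TTCNNNGAA, 6.87% and 8.19% for the GATA site AGATAA, 2.29% and 4.04% for the PU.1 site GAGGAAGT, 10.8% and 12.3% for the RUNX site TGTGGT and 10.4% and 11.3% for the E-box CACGTG. Of all genes, those sites stood upstream of 7.27%, 7.64%, 3.23%, 13.4% and 9.64%. These matches describe the sequence and were not tested.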

How the data were processed

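RNA of 14 cultures was made into SENSE mRNA-Seq libraries and read as single ends of 50 bases, per the labels' protocols. Trimmomatic, STAR and featureCounts are the tools, and GRCm38 the build, in the submitters' processing notes. Counts per gene were deposited as the authors made them, with featureCounts 1.5.1, reverse-stranded, on the GENCODE M13 annotation, per the file headers. A TPM column that the authors deposited beside them was not used.

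All 14 libraries entered 1 edgeR 4.0.16 quasi-likelihood fit in R 4.3.3 (robust, TMM, filterByExpr, group as the only term), with Benjamini-Hochberg adjustment over 14512 genes and a threshold of 0.05. CPM uses TMM-scaled library sizes. Libraries are taken as separate cultures; if not, p-values measure technical spread only. Counting intervals are exact, at 95%, and cover counting error only. Named genes were Cdk6, all genes past the threshold, and the 2 most abundant members of the lists described in detail; all others were chosen after their values were seen. A few members of these lists are not reported here. The members and lists were chosen with earlier results of these data known.

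The code and letter in the descriptions were read as naming the line, which the labels do not state. Deviations of the 2 libraries of a line from their group means correlated at 0.123, 0.102 and 0.117 in WT lines and at 0.0766, 0.110 and -0.0541 in KO lines, which does not settle that reading. The fit with line as a block stands beside the counts it moves most. Alternatives were other scalings and filters, DESeq2 1.42.0, limma-voom (limma 3.58.1), 3 block fits, code as a term, each code alone, and each library left out.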

Additional observations from a re-analysis of the deposited data

Results flagged for a closer look

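The KO minus WT difference itself differed between untransformed and p210 cells, by the interaction test, in 5 genes: Arhgef5 (-7.33), Tceal8 (-7.01), Slc43a1 (-4.41), Nxpe5 (-2.08) and Ifitm2 (-0.76).

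In groups of 4 libraries, 1 library stood far from the other 3 in 10 of 196 groups looked at, and chance gives about 1 in 20. In WT untransformed cells, replicate 3 was high for Kif11 (343 CPM against 280 to 287), E2f3 (48.7 against 43.0 to 43.8) and Nqo1 (23.3 against 12.7 to 13.1), and replicate 1 was low for Rrm1 (657 against 701 to 706). In KO p210 cells, replicate 4 was high for Tceal8 (0.156 against 0) and Mkrn3 (0.273 against 0.0873 to 0.116). Replicate 1 was high for Slc43a1 (0.314 against 0.0772 to 0.117) and Bst2 (94.2 against 66.5 to 71.1), and replicate 3 for Fam174b (0.320 against 0 to 0.0523) and Msh6 (131.6 CPM).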

How the results depend on the processing

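The count of 5 genes was 3 with library size only, 413 with DESeq2, 0 with line as a replicate block, 1 with code and letter as a block, 9 with line as a random effect in limma-voom, 0 with code as an added term, 32 in the first code only, 0 in the second code only, 2 in the 12 libraries of the paired lines and 0 without WT untransformed replicate 3 and KO p210 replicate 2 together. Leaving out 1 library gave 0 to 46: 0 without WT untransformed replicate 2 or 4, KO untransformed replicate 1 or 3 or KO p210 replicate 2, 1 without WT untransformed replicate 3 or KO untransformed replicate 2, 2 without KO p210 replicate 3, 8 without WT untransformed replicate 1, 13 without KO p210 replicate 1, 26 and 46 without WT p210 replicates 2 and 3 and 43 without KO p210 replicate 4. The cause was not tested. The 5 genes were negative in all 30 alternatives. The list medians of mitosis (0.22 to 0.64), lysosome (-0.90 to -0.64) and interferon genes (-1.43 to -0.72) kept their sign in all 30.

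Signs turned for genes that did not pass. In the second code only, Hoxa9 was 4.48, Hoxa7 0.19, Meis1 2.61, Cdk4 -0.069, Ly6a -4.15, Spred1 -0.14 and Fth1 -0.27. In the first code only, Samhd1 was 0.076, Bst2 0.12, Mpo -0.76, Lhx2 -0.10, Dusp6 0.14 and Hmox1 0.58. With the line block, Cdk4 was -0.0052, Mpo -1.71 and Hmox1 0.20. With the code and letter block, Ly6a was -0.25 and Dusp6 0.0070. In limma-voom, Ly6a was -1.43 and Mpo -0.85, and with line as a random effect -1.36 and -0.89. With code as a term Ly6a was -0.22. Without a filter Cdk4 was -0.0066. In the 12 libraries of paired lines, Cdk4 was -0.0030 and Hmox1 0.066. Without WT untransformed replicate 3 and KO p210 replicate 2 together, Dusp6 was 0.17 and Hmox1 0.12. Leaving out 1 library gave a range that held both signs for Pdia3 (-0.17 to 0.064), Cdk4 (-0.035 to 0.0997), Ly6a (-0.72 to 0.86), Mpo (-0.43 to 2.23), Lhx2 (-0.050 to 0.76), Dusp6 (-0.23 to 0.16), Fth1 (-0.018 to 0.50) and Hmox1 (-0.61 to 0.50).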
